A study of Homo sapiens with 24 samples.

Results

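The SOX genes encode transcription factors that bind DNA through a high mobility group box. A set of 10 of them (SOX2, SOX4, SOX5, SOX6, SOX8, SOX9, SOX10, SOX11, SOX12, and SOX21) was described here across 4 established glioblastoma cell lines. Their rows were found through the Ensembl identifier of each gene, and they are 10 of the 43037 genes in the deposited table. The members were chosen by their levels over the groups and by their changes between the variants in these same libraries, so the values below describe the genes and carry no independent test of them. CAGE-Seq, which counts the 5′ ends of capped transcripts as tags, was performed on U87MG, T98G, U251MG, and DBTRG-05MG cells. Each line was present as a “Vec” variant, which received the Puro-Blank control lentivirus, and as a “WWOX” variant, which received a lentivirus made to overexpress WWOX, an oxidoreductase with WW domains. With 3 libraries for each of the 8 groups, 24 libraries were available. The question was what overexpression of WWOX changes in each line.

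All variants were stably transduced and carried the lentiviral backbone with puromycin resistance, so “Vec” is a transduced control and not the parental line. Both variants of every line were transduced with polybrene at a multiplicity of infection of 1.5 and then selected with puromycin at 1 µg per mL. Expression of the transgene was driven by the CMV promoter. Culture media differed between the lines and were shared by both variants of a line, with MEM for T98G, RPMI 1640 for DBTRG-05MG, and EMEM for U87MG and U251MG. The 3 libraries of a group are biological replicates of the same transduced variant. Differences between lines therefore cannot be told apart from differences between media. The sources used here describe no second transduction of a line with the same vector. An effect of WWOX thus cannot be told apart from a difference between separately transduced and selected populations of a line. The p values below measure the spread between libraries of such populations.

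SOX proteins are sorted into groups by the similarity of their boxes. The SOXB group holds SOX2, which maintains neural progenitors and is widely used as a marker of stem-like glioma cells, and SOX21, which acts largely as a repressor and counters the SOXB activators. SOX4, SOX11, and SOX12 form the SOXC group, known from neuronal progenitors and differentiating neurons. SOX5 and SOX6 belong to the SOXD group, which lacks an activation domain of its own, and SOX8, SOX9, and SOX10 form the SOXE group, which specifies glia, cartilage, and neural crest derivatives.

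Levels are given as CPM, that is, tags of a gene scaled to the same total of tags on genes in every library. A tag marks the 5′ end of a transcript, so the value does not scale with transcript length. The libraries held 10756072 to 16953689 tags, and 3 tags corresponded to 0.177 to 0.279 CPM. Where all 3 libraries of a group held at most 3 tags, the level was taken as lying at or under that limit, which covers counting error only. The log2FC is the difference of “WWOX” minus “Vec” on the log2(scaled CPM + 0.5) scale, which understates changes of low genes, and it is followed by its standard error (SE). Adjusted p values are those of limma with Benjamini-Hochberg adjustment over 12327 genes that reached 5 CPM in at least 1 library, with a threshold of 0.05.

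The paper reports that Western blot established the efficiency of transduction, at the level of protein. Among the tags, WWOX itself was the check of the labels. The sources used here do not say whether tags of the transgene were counted to the gene. In U87MG its level was 40.1, 33.9, and 39.8 CPM in “Vec” and 66.0, 61.3, and 61.0 CPM in “WWOX”, and in DBTRG-05MG it was 20.4, 22.2, and 21.3 CPM against 32.0, 28.2, and 28.0 CPM, without overlap in either line. The groups overlapped in T98G (34.2 to 57.2 against 45.1 to 61.8 CPM) and in U251MG (31.4 to 36.8 against 17.4 to 56.7 CPM), and WWOX passed the threshold in none of the 4 lines (adjusted p from limma 0.108 to 1.0; log2FC 0.67 for U87MG, 0.01 for U251MG, and 0.39 for T98G and DBTRG-05MG). Of the U251MG libraries, “WWOX” 2 had 17.4 CPM, lower than every “Vec” library, so a U251MG difference is one between libraries labelled “WWOX” and “Vec”. Among the 24 pairs of replicates, the 3 pairs of U251MG “WWOX” differed most from each other, with chi-square values of 204 to 326 per degree of freedom against 23.5 to 132 in the remaining pairs. The astrocyte genes GFAP and S100B were at 114 and 31.8 CPM in U251MG “WWOX” 1, while the other 5 U251MG libraries held 2035 to 3226 and 144 to 343 CPM. Of the 10 glial and glioblastoma markers, 8 to 10 had at least 1 tag in each group, and their sum ranged from 752 to 1083 CPM in U87MG “Vec” and from 3807 to 5187 CPM in U251MG “Vec”. Sums over 6 blood cell markers were at most 15.1 CPM, and those over 5 epithelial markers at most 2.72 CPM. Of 5 endothelial markers the sum was 2.21 to 3.89 CPM in U251MG “Vec” and 4.51 to 13.3 CPM in U251MG “WWOX”, and at most 1.00 CPM elsewhere.

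The stretches upstream of SOX2, SOX4, SOX5, and SOX21 are shown because these genes were highest by CPM in the same 3 U251MG libraries, as described below, and had an entry in the RefSeq table. The 250 bases upstream of each start come from RefSeq on GRCh38.p14 and read 5′ to 3′ on the strand of the gene. They lie at chr3:181711675-181711924 on the plus strand (SOX2), chr6:21593501-21593750 on the plus strand (SOX4), chr12:24562492-24562741 on the minus strand (SOX5), and chr13:94712546-94712795 on the minus strand (SOX21). Capitals mark CCAAT on either strand, a box bound by the nuclear factor NF-Y.

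SOX2: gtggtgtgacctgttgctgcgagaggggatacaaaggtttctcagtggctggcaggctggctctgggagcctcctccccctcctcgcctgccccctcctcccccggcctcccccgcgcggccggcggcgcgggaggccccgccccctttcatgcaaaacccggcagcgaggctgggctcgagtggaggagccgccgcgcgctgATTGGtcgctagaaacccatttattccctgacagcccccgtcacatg

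SOX4: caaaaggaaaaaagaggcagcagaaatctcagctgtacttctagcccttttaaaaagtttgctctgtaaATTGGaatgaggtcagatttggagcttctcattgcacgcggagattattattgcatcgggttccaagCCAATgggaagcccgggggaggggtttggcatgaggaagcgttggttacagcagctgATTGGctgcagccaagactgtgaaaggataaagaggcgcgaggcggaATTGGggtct

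SOX5: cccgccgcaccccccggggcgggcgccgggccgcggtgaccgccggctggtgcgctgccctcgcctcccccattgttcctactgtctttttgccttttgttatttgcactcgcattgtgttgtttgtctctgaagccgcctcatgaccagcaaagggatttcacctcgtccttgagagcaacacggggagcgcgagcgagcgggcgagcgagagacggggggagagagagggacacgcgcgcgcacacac

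SOX21: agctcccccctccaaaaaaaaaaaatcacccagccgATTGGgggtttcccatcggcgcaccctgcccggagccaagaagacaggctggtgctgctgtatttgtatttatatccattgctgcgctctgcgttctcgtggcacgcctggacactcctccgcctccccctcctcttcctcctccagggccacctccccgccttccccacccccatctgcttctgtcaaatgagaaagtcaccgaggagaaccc

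CCAAT was present at 1 place upstream of SOX2 and of SOX21 and at 4 places upstream of SOX4, and it was not found upstream of SOX5. Over windows of 300 bases, from 250 before to 50 after a start, 34.6% of 35116 RefSeq promoters held the box on either strand. ACAAAG, a sequence of the kind SOX proteins bind, was found in the window of SOX2 and not in those of SOX4, SOX5, or SOX21, and 16.1% of all promoters held it. ACAATG, another such sequence, was found at 2 places in the window of SOX5 and not in those of SOX2, SOX4, or SOX21. On either strand, 10.8% of all promoters held it. SOX2 had 20 CpG dinucleotides in its window, SOX4 had 8, SOX5 had 29, and SOX21 had 15, against a median of 14. Of the 10 genes, 6 had an entry in the RefSeq table, and SOX8, SOX9, SOX10, and SOX11 did not. Matches are letters in a window and were not measured as binding.

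Of the 10 genes, 7 passed the filter on low values, namely SOX2, SOX4, SOX5, SOX9, SOX11, SOX12, and SOX21. SOX6 stayed below the filter, with a highest value of 4.73 CPM, but had more than 3 tags in all 24 libraries. SOX8 and SOX10 were never above 3 tags in a library, and each had 12 tags over all 24 libraries, so their levels lay at or under the limit of 0.177 to 0.279 CPM. The number of members with more than 3 tags in all 3 libraries of a group was 5 in U87MG “Vec” and “WWOX”, 6 in both T98G groups, 8 in U251MG “Vec”, 7 in U251MG “WWOX”, and 8 in both DBTRG-05MG groups. SOX4, SOX5, SOX6, SOX9, and SOX12 were read in every line, whereas SOX2 and SOX21 were read at more than a few tags in U251MG and DBTRG-05MG only, and SOX11 in all lines but U87MG.

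**Figure D1:**
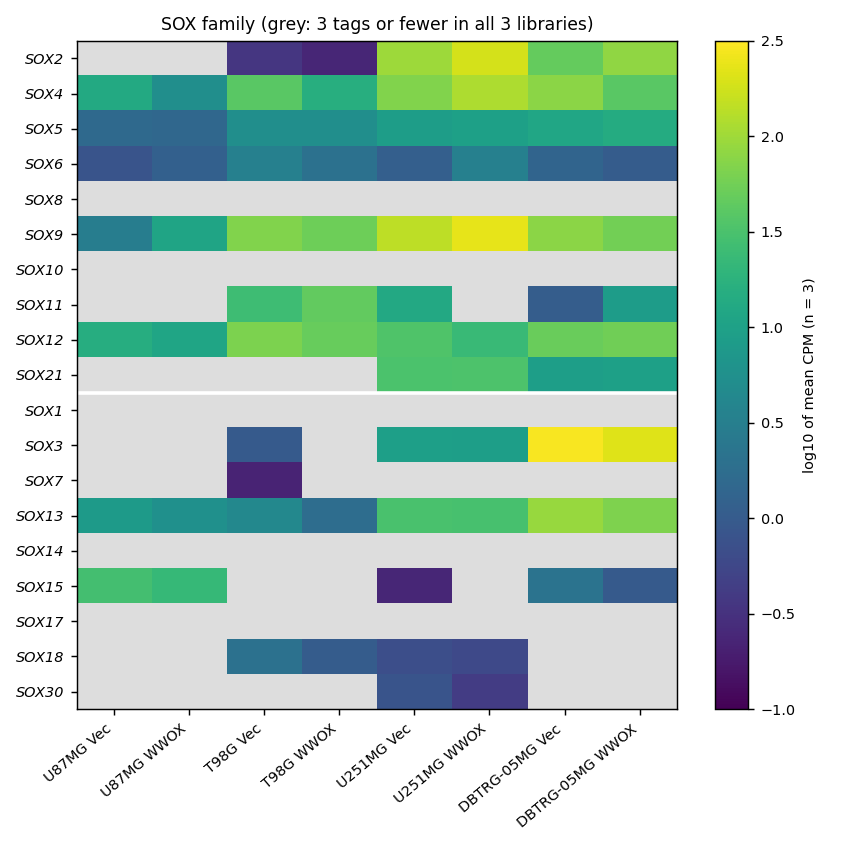
Each cell is the log10 of the mean CPM of 3 libraries for a SOX gene (rows) in a group (columns), and grey cells had 3 tags or fewer in all 3 libraries. The white line parts the 10 genes described here from 9 other SOX genes, and SOX8 and SOX10 are grey in all 8 groups.

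SOX11 was the member whose level differed past the threshold between “WWOX” and “Vec”, and it did so in opposite directions in 2 lines. It was lower in U251MG “WWOX” and higher in DBTRG-05MG “WWOX”. With limma, 0 of the 7 members passed the threshold in U87MG, where 3.21% of all tested genes did, and 2 of 7 had an unadjusted p under 0.05, beside 11.5% of all genes. In T98G, 0 of 7 passed with limma against 1.14% of all tested genes, and 2 of 7 had an unadjusted p under 0.05, beside 11.4%. In U251MG 1 of 7 passed and was lower, where 0.308% of all tested genes passed and 0.195% were lower. In DBTRG-05MG 1 of 7 passed and was higher, where 1.03% passed and 0.535% were higher. An unadjusted p under 0.05 was held by 11.6% of all tested genes in U251MG and 7.58% in DBTRG-05MG, and by 1 of 7 members in each. Since the members were chosen on these contrasts, nothing is read from these shares. The counts were the same with edgeR and limma-voom on the recovered tags, while DESeq2 called 1 member in U87MG, which was SOX9. Over the 7 members the median log2FC was 0.09 for DBTRG-05MG, -0.02 for U251MG, -0.23 for T98G, and -0.08 for U87MG, beside medians over all tested genes of 0.01, 0.01, -0.04, and 0.00. In these bulk libraries, fewer cells with a transcript and fewer transcripts per cell cannot be told apart.

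On the scaled log2 values, the “WWOX” and “Vec” libraries did not overlap for SOX9 (higher) and SOX4 (lower) in U87MG, where 8.19% and 9.01% of all tested genes did so in these directions. They did not overlap for SOX4 and SOX9 (both lower) in T98G, where 8.76% of genes were lower without overlap. The same held for SOX11 (lower) in U251MG and for SOX2 and SOX11 (both higher) in DBTRG-05MG, against 4.68% and 9.65% of all genes. SOX5, SOX12, and SOX21 overlapped between the variants in every line.

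**Figure D2:**
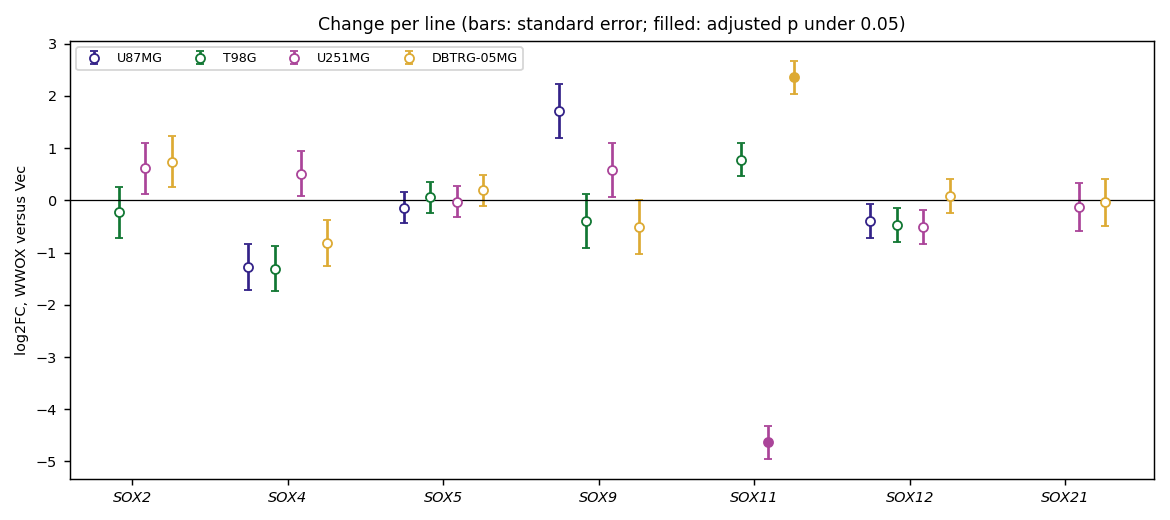
The log2FC between the variants is plotted per line as points for the 7 members that passed the filter, with bars of 1 SE, and filled points had an adjusted p under 0.05 (limma). The 2 filled points are SOX11 at -4.63 in U251MG and 2.36 in DBTRG-05MG, and lines with 3 tags or fewer in all 6 libraries are left out.

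SOX2 was read in U251MG and DBTRG-05MG and was at or near the limit in the other lines. The gene lies on chromosome 3 from 181711925 to 181714436 on the plus strand (hg38, GENCODE 44), inside the long noncoding gene SOX2-OT on the same strand. In U251MG it had 71.3, 172, and 50.8 CPM in “Vec” and 268, 31.0, and 266 CPM in “WWOX”. These groups overlapped, with the lowest and the highest of the 6 libraries both in “WWOX”. In DBTRG-05MG it had 43.9, 44.6, and 52.4 CPM in “Vec” and 74.0, 90.5, and 82.9 CPM in “WWOX”. Every “WWOX” library of DBTRG-05MG was above every “Vec” library, but the log2FC of 0.74 (SE 0.49) did not pass the threshold (adjusted p from limma 0.86). In U251MG log2FC was 0.61 (SE 0.49, adjusted p from limma 0.69). Without “WWOX” 2 of U251MG, the library with the low WWOX level, it was 1.41 (adjusted p from limma 0.042). In that fit 566 genes passed the threshold in U251MG, against 38 with all libraries. SOX2 itself was lowest in the library left out. In T98G the libraries held between 0 and 0.562 CPM, and in U87MG none was above 0.169 CPM. By mean level the order ran from U251MG “WWOX” (188 ± 136 CPM, SD, n = 3) over U251MG “Vec” (98.1 ± 64.9 CPM) and DBTRG-05MG “WWOX” (82.5 ± 8.29 CPM) to DBTRG-05MG “Vec” (47.0 ± 4.72 CPM). The first 3 of these overlapped with their neighbours, while DBTRG-05MG “Vec” overlapped neither with DBTRG-05MG “WWOX” nor with the groups of T98G.

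SOX2-OT, the transcript that surrounds SOX2, had 8.59, 13.7, and 7.37 CPM in U251MG “Vec” and 17.6, 7.44, and 25.4 CPM in U251MG “WWOX”. The 3 libraries in which it was highest were the same 3 in which SOX2 was highest. Its log2FC was 0.62 (SE 0.30) in U251MG and 0.36 (SE 0.30) in DBTRG-05MG, and it passed the threshold in neither line (adjusted p from limma 0.43 and 0.91). How tags in the shared stretch were assigned between SOX2 and SOX2-OT is not given in the sources used here.

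SOX21 was read in the same lines as SOX2. It lies on chromosome 13 from 94709622 to 94712545 on the minus strand, and the noncoding gene SOX21-AS1 overlaps it on the opposite strand. In U251MG it had 16.9, 61.4, and 19.6 CPM in “Vec” and 33.2, 7.44, and 60.6 CPM in “WWOX”, and in DBTRG-05MG 9.49, 6.76, and 11.7 CPM in “Vec” and 5.49, 14.1, and 9.94 CPM in “WWOX”. The variants overlapped widely in both lines. The log2FC was -0.14 (SE 0.46) in U251MG and -0.04 (SE 0.46) in DBTRG-05MG, so its level did not differ beyond the spread of the libraries. In U87MG and T98G no library had more than 2 tags. SOX21-AS1 had 38.0, 128, and 73.3 CPM in U251MG “Vec” and 57.7, 31.3, and 89.0 CPM in U251MG “WWOX”. As for SOX21, “Vec” 2 was the highest library and “WWOX” 2 the lowest. Neither SOX2-OT nor SOX21-AS1 passed the threshold in any line with limma, edgeR, limma-voom, or DESeq2, and 1 of them, SOX2-OT in U251MG, had an unadjusted p under 0.05.

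SOX11 showed the largest log2FC of the 7 members in size, in U251MG, and the next largest, in DBTRG-05MG. The gene (ENSG00000176887.7) lies on chromosome 2 from 5692384 to 5701385 on the plus strand and overlaps 1 further annotated gene on that strand. In U251MG it had 8.11, 14.2, and 16.8 CPM in “Vec”, that is, at least 100 tags each, and no tag in any of the 3 “WWOX” libraries. The gene was thus read in every “Vec” library and in no “WWOX” library of this line, “WWOX” 2 with its low WWOX level included. Set against 3 tags in each “WWOX” library (a mean of 0.208 CPM), SOX11 was at least 62.8-fold lower in U251MG “WWOX”. The fitted log2FC was -4.63 (SE 0.32, adjusted p from limma 7.68e-09) and depends on the pseudocount. It stayed between -4.90 and -4.42 when each of the 24 libraries was left out in turn, and passed the threshold in each case.

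In DBTRG-05MG the same gene had 1.37, 1.35, and 0.527 CPM in “Vec”, or 8 to 21 tags, and 13.2, 6.74, and 5.55 CPM in “WWOX”, or 81 to 223 tags. All “WWOX” libraries were above all “Vec” libraries. The log2FC was 2.36 (SE 0.32, adjusted p from limma 0.000125) and remained past the threshold without any 1 of the 24 libraries, with values of 2.04 to 2.54. With a separate model for DBTRG-05MG alone, the adjusted p from limma was 0.078. In T98G, where its level was highest, SOX11 had 31.4, 23.7, and 22.7 CPM in “Vec” and 60.4, 31.4, and 44.7 CPM in “WWOX”. The highest “Vec” library and the lowest “WWOX” library were both at 31.4 CPM, and the log2FC of 0.78 (SE 0.32) did not pass the threshold (adjusted p from limma 0.33). In U87MG 1 tag was read over the 6 libraries.

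The change of SOX11 was then set against the mean change of the other lines, a difference that has its own test in the model. The difference was -5.65 (SE 0.37) for U251MG, 3.67 (SE 0.37) for DBTRG-05MG, and 1.56 (SE 0.37) for T98G, with adjusted p from limma of 2.61e-09, 2.67e-06, and 0.032. Of all tested genes, 0.487% passed for U251MG (0.292% lower), 0.998% for DBTRG-05MG (0.584% higher), and 1.56% for T98G (0.544% higher). For U87MG, where the gene was not read, the difference was 0.42 and did not pass. There 0 of the 7 members passed with limma and 1 had an unadjusted p under 0.05, beside 2.39% and 9.97% of all tested genes, and edgeR and DESeq2 called none. The 4 differences share libraries, and the mean for T98G and DBTRG-05MG contains the value of U251MG. For T98G the call was lost without “Vec” 1, “Vec” 2, “Vec” 3, “WWOX” 1, or “WWOX” 3 of T98G, or “WWOX” 2 of DBTRG-05MG (1.30 to 1.81 over all libraries left out), and none of the 3 differences was called by edgeR. The part of U251MG, where a group at 0 tags sets the fitted size, in that result was not tested.

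SOX4 had tags in all 24 libraries. It lies on chromosome 6 from 21593751 to 21598619 on the plus strand. In U87MG it had 9.59, 19.4, and 11.4 CPM in “Vec” and 5.20, 4.41, and 6.27 CPM in “WWOX”. In T98G it had 49.4, 35.1, and 36.2 CPM in “Vec” and 18.1, 13.8, and 15.4 CPM in “WWOX”. In both lines each “WWOX” library was below each “Vec” library, with a log2FC of -1.27 (SE 0.44) in U87MG and -1.31 (SE 0.44) in T98G. Neither value passed the threshold (adjusted p from limma 0.149 and 0.176). In DBTRG-05MG it had 74.2, 32.1, and 125 CPM in “Vec” and 28.4, 45.0, and 47.4 CPM in “WWOX”, and in U251MG 56.8, 106, and 46.6 CPM in “Vec” and 106, 37.1, and 205 CPM in “WWOX”. The variants overlapped in these lines, and the log2FC was -0.82 (SE 0.44) in DBTRG-05MG and 0.51 (SE 0.44) in U251MG. Over the 4 lines the mean log2FC of SOX4 was -0.72 (SE 0.22, adjusted p from limma 0.105). For that mean, 0 of the 7 members passed the threshold with limma and 2 had an unadjusted p under 0.05, beside 1.73% and 15.3% of all tested genes. Without “WWOX” 3 of U251MG or without “Vec” 2 of DBTRG-05MG, SOX4 passed it, as SOX11 and SOX4 did with DESeq2. U251MG differed from the mean of the other lines by 1.65 for SOX4 (SE 0.50, adjusted p from limma 0.160), and this difference passed without “WWOX” 2 of U251MG and with DESeq2. Genes past the threshold for the U251MG difference numbered 191 without that library and 172 with DESeq2, against 60 in the main fit. By mean level SOX4 ran from U251MG “WWOX” (116 ± 84.5 CPM) down to U87MG “WWOX” (5.29 ± 0.931 CPM), and the 5 highest groups overlapped with their neighbours.

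SOX12, the remaining SOXC gene, was read in all 24 libraries. It lies on chromosome 20 from 325552 to 330224 on the plus strand, with NRSN2-AS1 overlapping on the opposite strand. Without known strand handling, tags of such pairs may not be told apart. It had 12.6 to 18.7 CPM in U87MG “Vec” and 10.5 to 12.7 CPM in “WWOX”, 53.4 to 77.3 against 34.0 to 71.4 CPM in T98G, 29.4 to 37.1 against 21.0 to 28.7 CPM in U251MG, and 39.9 to 62.6 against 44.4 to 62.5 CPM in DBTRG-05MG. In U251MG the ranges were apart on the CPM scale and overlapped after scaling. The log2FC was 0.09 for DBTRG-05MG, -0.50 for U251MG, -0.47 for T98G, and -0.40 for U87MG, each with an SE of 0.33 and none past the threshold (adjusted p from limma 0.61 to 0.99). U87MG was the line with the lowest level, and its “Vec” libraries did not overlap with those of U251MG “WWOX”.

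**Figure D3:**
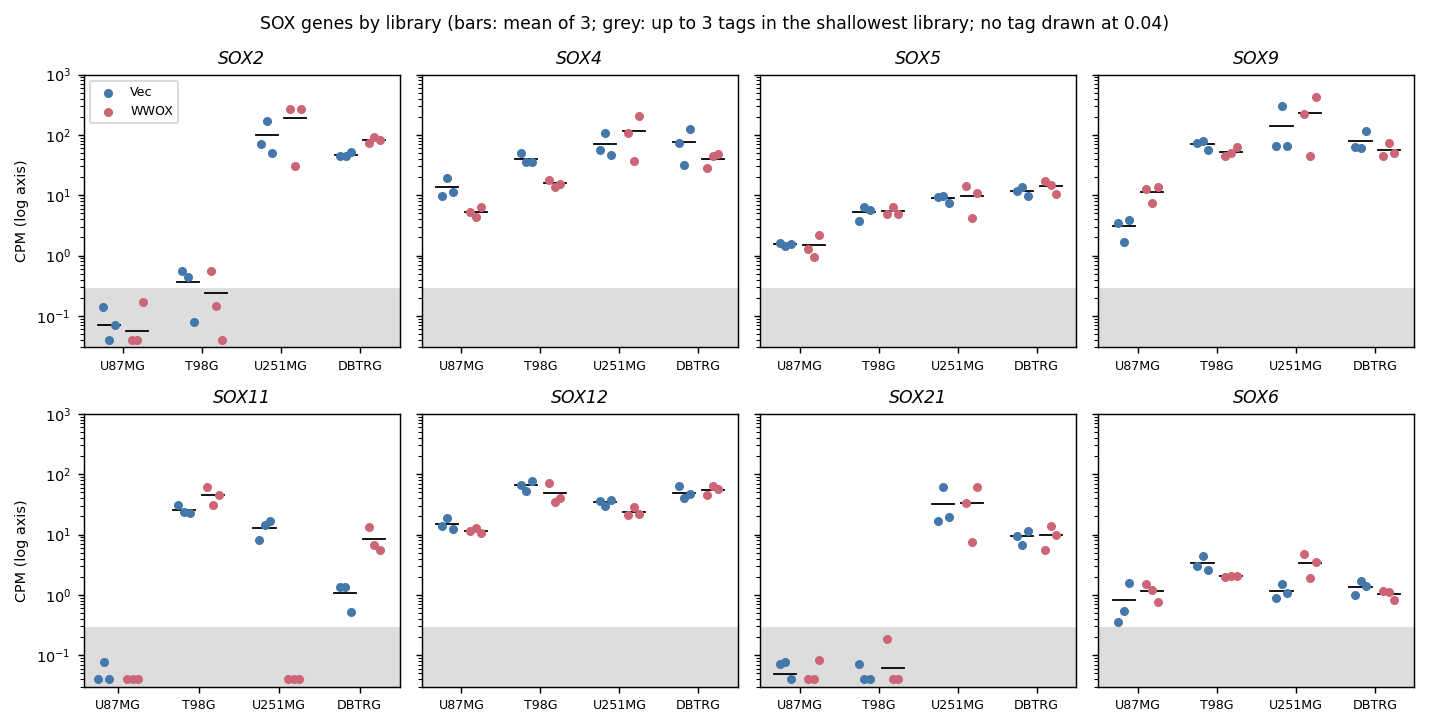
Each point is 1 library, with CPM on a log axis, for the 7 members tested and SOX6 in the 4 lines (“Vec” blue, “WWOX” red, bars the mean of 3). The grey band ends at 0.279 CPM, the level of 3 tags in the shallowest library, libraries without a tag are drawn at 0.04, and all 3 “WWOX” libraries of U251MG lie there for SOX11.

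SOX5 and SOX6, the SOXD genes, were low in all lines. SOX5 spans chromosome 12 from 23529504 to 24562544 on the minus strand. It ran from 0.950 to 2.2 CPM in U87MG, 3.80 to 6.46 CPM in T98G, 4.22 to 14.3 CPM in U251MG, and 9.88 to 17.3 CPM in DBTRG-05MG. Within each line the variants overlapped, and the log2FC lay between -0.14 and 0.19 with an SE of 0.29. By mean level, SOX5 was ordered as DBTRG-05MG, U251MG, T98G, and U87MG in both variants, and the ranges of U87MG were apart from those of all other lines.

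SOX6 lies on chromosome 11 from 15966449 to 16739591 on the minus strand and was not part of the test. In U251MG it had 0.892, 1.51, and 1.07 CPM in “Vec” and 4.73, 1.93, and 3.45 CPM in “WWOX”, or 11 to 19 against 27 to 69 tags. In T98G it had 3.02, 4.39, and 2.57 CPM in “Vec” and 1.95, 2.08, and 2.05 CPM in “WWOX”. By CPM the variants did not overlap in these lines, with “WWOX” higher in U251MG and lower in T98G. The share of all genes apart in this way by CPM was not counted, so nothing is read from it. On the scaled log2 values, 8.76% of tested genes were lower without overlap in T98G. In U87MG and DBTRG-05MG the ranges overlapped, between 0.355 and 1.54 CPM and between 0.822 and 1.67 CPM.

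SOX9 was the SOXE gene that was read, and it had tags in all 24 libraries. It lies on chromosome 17 from 72121020 to 72126416 on the plus strand, and SOX9-AS1 overlaps it on the opposite strand. In U87MG it had 3.48, 1.70, and 3.93 CPM in “Vec” and 12.5, 7.53, and 13.6 CPM in “WWOX”. The libraries were apart, and the log2FC was 1.71 (SE 0.52, adjusted p from limma 0.079). This value passed the threshold when “Vec” 2, “WWOX” 2, or “WWOX” 3 of U251MG was left out (adjusted p from limma 0.027, 0.020, and 0.041), libraries of another line that share the estimate of the spread, and with DESeq2 (adjusted p 0.021). In T98G it had 74.6, 77.8, and 56.3 CPM in “Vec” and 45.1, 49.3, and 63.6 CPM in “WWOX”, which overlapped as CPM and were apart after scaling, with a log2FC of -0.39 (SE 0.52). In U251MG it had 65.7, 297, and 65.2 CPM in “Vec” and 222, 44.9, and 430.2 CPM in “WWOX”. In DBTRG-05MG it had 62.3, 59.6, and 115 CPM in “Vec” and 45.2, 74.4, and 49.7 CPM in “WWOX”. The variants overlapped in these lines, and the log2FC was 0.59 (SE 0.52) in U251MG and -0.51 (SE 0.52) in DBTRG-05MG. U87MG differed from the mean of the other lines by 1.82 (SE 0.60, adjusted p from limma 0.147). Both U87MG groups lay below every other group for SOX9, and the 6 other groups each overlapped with their neighbours in the order of means. SOX9-AS1 was not part of the test. It had no tag in U87MG “Vec” and 0.428, 0.204, and 0.254 CPM in U87MG “WWOX”, with “WWOX” 2 and 3 at the limit of 3 tags.

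SOX8 and SOX10, the other SOXE genes, had at most 3 tags in any library. Both had tags in 7 of the 24 libraries, and the highest values were 0.203 CPM for SOX8 and 0.188 CPM for SOX10. At this depth no difference between lines or variants was detectable for them.

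Several members had their highest values in the same libraries among the 6 of U251MG, without regard to the variant. “Vec” 2, “WWOX” 1, and “WWOX” 3 were the 3 highest U251MG libraries for SOX2, SOX4, SOX5, SOX9, and SOX21, that is, for 5 of the 7 members by CPM. The same 3 were highest for 22.2% of all tested genes. After scaling, they were highest for SOX2, SOX4, SOX9, and SOX21 (4 of 7) and for 13.1% of all tested genes. “WWOX” 2 was the lowest library for 5 of 7 members by CPM and 4 of 7 after scaling, beside 44.0% and 26.9% of all tested genes. These libraries were picked from the order of the members themselves, so nothing is read from the shares. Among the 6 U251MG libraries the highest value was 8.64 times the lowest for SOX2, 9.58 times for SOX9, and 8.25 times for SOX21. It was 5.53 times for SOX4, 3.40 times for SOX5, and 1.77 times for SOX12. Scaling factors also stood apart here, with 0.778 in “WWOX” 2, the lowest of the 24, and 1.23 in “WWOX” 3, the highest. SOX11 and SOX12 did not share this order. The part of depth, scaling, and the cells' GFAP level in it was not tested.

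**Figure D4:**
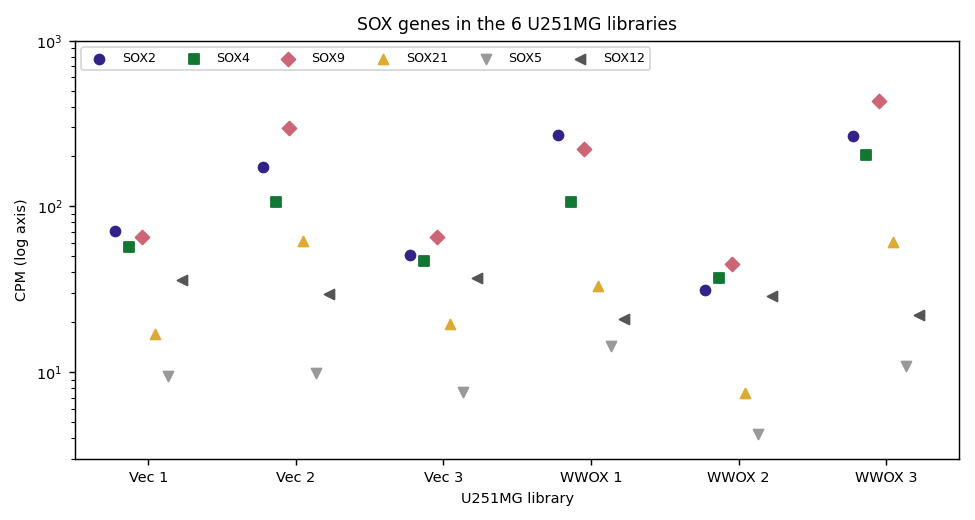
CPM (log axis) of 6 SOX genes in each of the 6 U251MG libraries, 3 “Vec” and 3 “WWOX”. SOX2, SOX4, SOX9, and SOX21 are high in “Vec” 2, “WWOX” 1, and “WWOX” 3. In “WWOX” 2, SOX2, SOX4, SOX5, SOX9, and SOX21 are lowest (31.0, 37.1, 4.22, 44.9, and 7.44 CPM).

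Of 9 further SOX genes in the table, 3 passed the filter. SOX3, a SOXB activator close to SOX2, had 193 to 352 CPM in DBTRG-05MG “Vec” and 172 to 239 CPM in DBTRG-05MG “WWOX”, 8.03 to 10.9 CPM over the U251MG libraries, and at most 1.41 CPM in T98G and 0.0847 CPM in U87MG. DBTRG-05MG and U251MG thus both had tags of SOX2, SOX3, and SOX21 in every library. In T98G SOX3 had 1.41, 1.19, and 0.389 CPM in “Vec” and 0.0930, 0, and 0 CPM in “WWOX”. Set against 3 tags in each “WWOX” library, SOX3 was at least 4.27-fold lower in T98G “WWOX”, and its log2FC of -1.47 (SE 0.28) passed the threshold (adjusted p from limma 0.00735). It did not pass without “Vec” 1 or without “WWOX” 3 of T98G (adjusted p from limma 0.089 and 0.056). Nor did it pass with a pseudocount of 1 (log2FC -0.95) or with a separate model for the line. SOX13, a SOXD gene, had a mean of 92.4 CPM in DBTRG-05MG “Vec” and 66.0 CPM in “WWOX”. In T98G it had 5.55, 3.01, and 4.36 CPM in “Vec” and 1.77, 2.23, and 1.39 CPM in “WWOX”. By CPM its variants were apart in T98G only, and the share of all genes apart in this way was not counted. SOX13 passed the threshold in no line. SOX15 was read mainly in U87MG, with 22.9, 26.7, and 35.9 CPM in “Vec” and 18.4, 25.9, and 21.4 CPM in “WWOX”, and passed it in no line either. The median log2FC of these 3 genes was -0.42, -1.06, -0.10, and -0.56 in U87MG, T98G, U251MG, and DBTRG-05MG. SOX18 had 177 tags over the 24 libraries, SOX30 had 59, SOX7 had 21, SOX17 had 6, and SOX1 and SOX14 had none.

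Genes that act with or downstream of the SOX groups were counted in lists taken from textbook knowledge. Of 20 neural progenitor factors and partners of SOX2, 15 were tested, and 0 passed the threshold in any line with limma, edgeR, limma-voom, or DESeq2. An unadjusted p under 0.05 from limma was seen for 3 of the 15 in U87MG, 2 in T98G, and 1 in each of the other lines, beside 11.5%, 11.4%, 11.6%, and 7.58% of all tested genes in U87MG, T98G, U251MG, and DBTRG-05MG. In the mean of 4 lines 1 of the 15 passed with limma, beside 1.73% of all tested genes. It was MSI1, an RNA-binding protein of neural progenitors (log2FC -0.71, SE 0.17, adjusted p from limma 0.031). It was named after its value was seen. MSI1 was not called with edgeR, limma-voom, DESeq2, or a pseudocount of 0.1, nor in 13 of 24 fits without 1 library. The median log2FC of the list was 0.05, -0.15, 0.02, and -0.23 in the order U87MG, T98G, U251MG, and DBTRG-05MG. The list includes HEY1, a Notch target (mean of 47.8 CPM over all libraries), and NES, the intermediate filament of progenitors (26.0 CPM).

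Of 18 cartilage and glial genes downstream of SOX9, SOX5, and SOX6, 7 were tested. With limma 1 of them passed the threshold, in DBTRG-05MG, where 1.03% of all tested genes passed. COL11A1, which encodes a fibrillar collagen of cartilage, rose in DBTRG-05MG from a mean of 23.5 to 86.8 CPM (log2FC 1.77, SE 0.40, adjusted p from limma 0.028). It was not called there with edgeR, with a pseudocount of 0.1, with a separate model for the line, or without “Vec” 1, “Vec” 2, “WWOX” 2, or “WWOX” 3 of DBTRG-05MG (1.46 to 2.16 over all libraries left out). SOX9 itself had a log2FC of -0.51 in that line. The median log2FC of the list was 0.47 for U87MG, 0.18 for T98G, -0.46 for U251MG, and 0.36 for DBTRG-05MG. GFAP, which is on this list, passed the threshold in no line.

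Of 22 neural crest and oligodendrocyte genes downstream of SOX10 and SOX8, 12 were tested. MBP, a myelin protein, was higher in U87MG “WWOX” (log2FC 2.37, SE 0.36, adjusted p from limma 0.000164), with at most 1 tag per “Vec” library and 1.19 to 3.24 CPM in “WWOX”, at least 10.9-fold higher. NKX2-2, a factor of oligodendrocyte precursors, was lower in “WWOX” of DBTRG-05MG, at 3.09 against 6.72 CPM (log2FC -1.05, SE 0.18, adjusted p from limma 0.00256). It was not called there with edgeR, limma-voom, a pseudocount of 0.1, or a separate model for the line. NKX2-2 reached the filter of 5 CPM only in DBTRG-05MG “Vec”, the group where it was high, so this call is a description. In U251MG 0 of 12 passed with limma, edgeR, and limma-voom, 1 passed with DESeq2, and 3 had an unadjusted p under 0.05 from limma, where 11.6% of all tested genes did. The medians of the list were 0.03, -0.21, -0.22, and -0.35 in the same order of lines. SOX10 and SOX8 were at or under 3 tags in all of these libraries. CNP and PMP22 had means of 127 and 55.0 CPM over all libraries and passed the threshold in no line.

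Of 16 neuronal genes and targets of the SOXC group, 8 were tested. With limma 2 of them passed the threshold, both lower in U87MG “WWOX”, where 3.21% of all tested genes passed. TEAD2, a partner of the Hippo effector YAP, had a mean of 2.38 CPM in “Vec” and at most 1 tag per library in “WWOX”, at least 11.1-fold lower (log2FC -2.53, SE 0.37, adjusted p from limma 8.94e-05). MARCKSL1 fell from 22.4 to 4.56 CPM (log2FC -2.12, SE 0.46, adjusted p from limma 0.00818), and this call was lost without “Vec” 2 (-1.64) or “WWOX” 2 (-1.79) of U87MG and with a separate model for the line. In the same line SOX4 had a log2FC of -1.27 and SOX12 of -0.40, and SOX11 was not read. In U251MG, where SOX11 had no tag in “WWOX”, 0 of the 8 passed with limma, edgeR, limma-voom, or DESeq2, 3 had an unadjusted p under 0.05 from limma beside 11.6% of all tested genes, and the median log2FC was -0.81. Nothing particular to the list is read from this count. The medians were -0.12 in U87MG, -0.14 in T98G, and -0.54 in DBTRG-05MG, beside 0.00, -0.04, and 0.01 over all tested genes. In T98G and DBTRG-05MG 0 of the 8 passed with any of the 4 tools, and 1 in each had an unadjusted p under 0.05 from limma, beside 11.4% and 7.58% of all tested genes. In the mean of 4 lines 1 of the 8 passed with limma, beside 1.73% of all tested genes. It was TEAD2 (log2FC -1.07, SE 0.18, adjusted p from limma 0.00177), which also passed with edgeR, limma-voom, and DESeq2. TUBB3, the neuronal tubulin on this list, had a mean of 83.8 CPM over all libraries.

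Markers that moved past the threshold stood beside these results. ALDH1L1, an astrocyte enzyme, was higher in U87MG “WWOX” (log2FC 1.52, SE 0.24), with no tag in “Vec” and 0.551 to 1.36 CPM in “WWOX”, and lower in DBTRG-05MG “WWOX” (log2FC -1.01, SE 0.24, from 4.02 to 1.72 CPM), with adjusted p from limma of 0.000294 and 0.041. The call in DBTRG-05MG was lost with edgeR, limma-voom, DESeq2, a pseudocount of 0.1, and a separate model for the line, and in 15 of 23 fits without 1 library. ALDH1L1 reached the filter of 5 CPM only in “Vec” 1 of DBTRG-05MG, in the group where it was high. The call in that line is thus a description. CDH5, an endothelial cadherin, was higher in U251MG “WWOX” (log2FC 1.29, SE 0.23, adjusted p from limma 0.010). It had 13.2 CPM in “WWOX” 1 and 4.43 and 7.17 CPM in “WWOX” 2 and 3. CDH5 reached the filter of 5 CPM only in “WWOX” 1 and 3 of U251MG, the group then called higher. The call is thus a description. Of the 5 endothelial markers, PECAM1 and TEK had no tag in U251MG “Vec”, and CLDN5 and TEK had none in U251MG “WWOX”. CDH5 was not called in U251MG with edgeR, limma-voom, DESeq2, a pseudocount of 0.1, or a separate model for the line. Nor was it called without “Vec” 2, “Vec” 3, or “WWOX” 1 of U251MG. Their part in the values of the SOX genes was not tested.

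For each tested member, the 3 genes with the most similar pattern over the 8 group means were named as a description. For SOX2 these were ZNF677, PTPRB, and ULK2 (Pearson r of 0.998, 0.997, and 0.997), and for SOX21 EPHA3, NUP210, and FABP7 (0.998, 0.998, and 0.997). For SOX5 they were AUTS2, ZNF260, and ZNF527 (0.995, 0.995, and 0.994), and for SOX9 TMEM38A, R3HDM4, and SOCS2 (0.987, 0.985, and 0.982). For SOX12 they were SNRNP25, RHOT2, and CHEK1 (0.981 each), and for SOX4 PPP2R5D, ALKBH4, and RAB40B (0.974, 0.972, and 0.970). SOX11 had the lowest values, with THAP4, MSRB1, and RGS19 (0.958, 0.958, and 0.957). The 8 points are 4 lines taken in both variants, so they share lines, media, and depth.

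Relative to all tested genes, the median log2FC on chromosome 2, which holds SOX11, was 0.09 in U251MG and 0.16 in DBTRG-05MG (837 genes). On chromosome 17, with SOX9, it was -0.07 in U87MG and -0.31 in T98G (736 genes), and on chromosome 6, with SOX4, it was -0.04 in U87MG and -0.12 in T98G (636 genes). SOX9 in T98G had a log2FC of -0.39.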

How the data were processed

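CAGE libraries, primed at random and captured by their cap, were sequenced as single reads, and per the labels the reads were aligned to hg38, with STAR, SAMtools, and limma 3.42 named in the processing notes. The annotation used and whether counting used strand are not given in the sources used here. The authors deposited CPM, the tags of each gene scaled to the library total on genes, in 1 table of all samples and in 24 single tables that held the same values. All nonzero CPM values were whole multiples of 1 tag within 0.01 (100.0% in each library), so tags were recovered. The authors' own test was not repeated.

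The 12327 genes that reached 5 CPM in any library were kept, CPM were scaled by TMM factors (0.778 to 1.23), and log2(scaled CPM + 0.5) was fitted with limma 3.58.1 (trend, R 4.3.3) over 8 groups, with 16 residual degrees of freedom. Contrasts were “WWOX” minus “Vec” in each line, each line minus the mean of the others, and the mean of 4 lines. Alternatives were pseudocounts of 0.1 and 1, other filters and scalings, a model per line, a replicate block, limma-voom, edgeR 4.0.16 and DESeq2 1.42.0 on recovered tags, and leaving out each library. The pipeline was tested on simulated data.

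Members and gene lists were chosen with earlier results of these data known. All members were named, with list genes past the threshold and the most abundant 2 of each list. 1 list gene past the threshold is not reported here. Symbols were found for 43033 of 43037 identifiers. Positions are from GENCODE 44 on hg38.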

Additional observations from a re-analysis of the deposited data

Results flagged for a closer look

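These differences between lines passed a test of the difference itself, in which the change in a line was set against the mean change of the other lines (limma, Benjamini-Hochberg adjustment over 12327 genes). All differences are log2FC, and they share libraries.

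SOX11 differed by -5.65 for U251MG, 3.67 for DBTRG-05MG, and 1.56 for T98G (SE 0.37 each, adjusted p from limma 2.61e-09, 2.67e-06, and 0.032). SOX3 differed by -1.30 for T98G (SE 0.32, adjusted p from limma 0.042), with at most 20 tags in a T98G library, and this call was lost in 18 of 24 fits without 1 library. It was kept under 4 of 10 alternatives.

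Among the list genes, TEAD2 (-1.95) and MARCKSL1 (-2.07), both on the SOXC list, were lower in U87MG relative to the other lines (adjusted p from limma 0.011 and 0.040). MBP differed by 2.42 for U87MG and -1.89 for T98G (adjusted p from limma 0.000896 and 0.022). ALDH1L1 differed by 2.01 for U87MG and -1.37 for DBTRG-05MG (adjusted p from limma 6.01e-05 and 0.012). NKX2-2 differed by -1.04 for DBTRG-05MG (adjusted p from limma 0.012), and CDH5 by 1.27 for U251MG (adjusted p from limma 0.037). The difference of CDH5 and that of ALDH1L1 for DBTRG-05MG passed with none of edgeR, limma-voom, and DESeq2. That of NKX2-2 passed with neither edgeR nor limma-voom. CDH5 reached the filter of 5 CPM only in U251MG “WWOX”, and NKX2-2 and ALDH1L1 only in DBTRG-05MG “Vec”. Their differences for these lines are thus a description.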

How the results depend on the processing

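SOX11 in U251MG passed the threshold under all 11 alternatives (log2FC -10.49 to -3.69). In DBTRG-05MG it had 2.01 to 2.92 and was lost with a separate model for each line, where 0 members passed. DESeq2 called 1 member in U87MG (SOX9), 2 in the difference of U251MG (SOX4 added), and 2 in the mean of 4 lines. The mean gave 1 member (SOX11) with a pseudocount of 0.1 and with limma-voom. The T98G difference gave 0 without a filter, and the T98G, U251MG, and DBTRG-05MG differences gave 0 with edgeR. The causes were not tested.

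With each library left out in turn, members past the threshold numbered 0 to 1 in U87MG, 1 to 2 in U251MG (SOX2 without “WWOX” 2), 0 to 1 in the T98G difference, 1 to 2 in the U251MG difference, and 0 to 1 in the mean. Small log2FC changed sign: SOX5 in U251MG was 0.00766, 0.051, and 0.042 with limma-voom, edgeR, and DESeq2, and SOX21 in DBTRG-05MG was 0.015 with CPM as deposited, 0.042 with edgeR, and 0.041 with DESeq2. Without 1 library, SOX2 in T98G ranged from -0.56 to 0.037, SOX5 from -0.42 to 0.055 in U87MG, -0.15 to 0.22 in T98G, and -0.27 to 0.25 in U251MG, SOX12 in DBTRG-05MG from -0.015 to 0.28, and SOX21 from -0.66 to 0.48 in U251MG and -0.32 to 0.34 in DBTRG-05MG.

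Over the 11 alternatives, genes called numbered 200 to 618 in U87MG, 0 to 273 in T98G, 3 to 162 in U251MG, and 37 to 395 in DBTRG-05MG, beside 396, 141, 38, and 127. The replicate numbers did not pair the samples (correlations of -0.55 to 0.51 in 12 pairs, 4 over 0.1), and with a replicate block 0, 0, 1, and 1 members passed in U87MG, T98G, U251MG, and DBTRG-05MG, as without it. With the block ALDH1L1, COL11A1, and NKX2-2 in DBTRG-05MG, MSI1 in the mean of 4 lines, and SOX3 in the T98G difference were not called. At 0.177 to 0.279 CPM for 3 tags, depth gave no reading for SOX8 and SOX10.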
